A study of Mus musculus with 8 samples.

Results

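The genes described here are 9 members of the BCL2 family and Apaf1, which together set the threshold for the mitochondrial path of apoptosis. They were taken by gene symbol from a table of 54232 gene rows, and each of the 10 symbols had 1 row: Bcl2, Bcl2l1, Mcl1, Bcl2l11, Bbc3, Pmaip1, Bid, Bax, Bak1 and Apaf1. All 10 passed the filter on low values (3 or more of the 6 libraries with a normalized count of 1 or higher), as did 19087 genes in all. RNA was sequenced from 3 libraries of mouse cells given C28 and 3 libraries given the solvent DMSO, both for 3 h. C28 is a code name, written 028 in the sample titles, and the sources used here give neither what the compound is nor its dose. Both groups are cells of C57BL/6 background labelled as female germline stem cells (FGSCs), germ cells of the ovary that divide in culture, and age and passage are not given. An H3K27ac library of each condition also exists, but its peaks are in the mouse build mm9, for which no gene positions were at hand, so it was not used here.

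In this path, signals from damage or stress raise or activate the BH3-only proteins, here Bbc3 (PUMA), Pmaip1 (NOXA), Bcl2l11 (BIM) and Bid. These bind the guardians Bcl2, Bcl2l1 (BCL-XL) and Mcl1, which hold the effectors Bax and Bak1 in check. Freed effectors open pores in the outer mitochondrial membrane, cytochrome c escapes, and Apaf1 assembles with it into the apoptosome that activates caspase 9. BCL2 family proteins are also regulated by splicing, modification and rapid decay, so their RNA is one layer of their control. Bcl2 and Bcl2l1 also bind Beclin 1, a starter of autophagy, which is the process named in the title of the series.

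The libraries held 16930212 to 19197376 reads assigned to genes, and each member had between 201 and 4915 reads in every library. Counting error was thus limited but not small beside the smaller changes. For the C28 to DMSO ratio in replicate 3, counting alone gave Bcl2l11 a 95% interval from 0.654 to 0.949. In replicate 1 the interval of Mcl1 ran from 0.976 to 1.06. The labels do not say whether replicates came from separate cultures, so the p-values cover only how these libraries vary, and that variation may be technical. Replicate 1 stood apart from replicates 2 and 3 in both groups, and same-numbered libraries deviated together. The labels state no pairing, so a pair or partner below means only libraries of the same number. Between replicates 2 and 3, differently numbered libraries also correlated, at 0.54 and 0.41. Each member is therefore given with 2 fits of limma, a linear model over all genes: without a block, and with the replicate number as a block, which compares same-numbered libraries. Of 12 germline stem cell genes 9 averaged under 10 normalized counts, and Pou5f1, Dppa3 and Tfap2c had 0 of 108208382 reads, which allows up to 3. The other 3 were Etv5, at 1524 ± 280 with C28 and 1703 ± 254 with DMSO, Ifitm3, at 191 ± 92.0 and 211 ± 114, and Zbtb16, at 18.4 ± 18.2 and 35.7 ± 33.9 (SD, n = 3 each). Of 14 mast cell and leukocyte genes 5 averaged under 10 normalized counts, with Fcer1a and Tpsb2 at 0 reads. The highest of that list was Gata2, a blood lineage transcription factor, at 22414 ± 575 with C28 and 25072 ± 977 with DMSO. Summed over its 14 genes, the list reached 58988 to 61620 normalized counts in the C28 libraries and 62425 to 66361 in the DMSO libraries.

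After 3 h of C28 the RNAs of 3 genes that promote death, Bbc3, Pmaip1 and Apaf1, rose in the fit with the replicate block, and the RNA of the guardian Bcl2l1 fell. The folds were 1.68 for Bbc3, 1.45 for Pmaip1, 1.29 for Apaf1 and 0.861 for Bcl2l1, and the other 6 members did not pass an adjusted p of 0.05. The same threshold was passed by 4.79% of all genes with the block, 2.54% upward and 2.25% downward. Among the 9681 genes averaging at least 100 normalized counts, as every member does, 8.73% passed, 4.53% upward and 4.19% downward. Without the block 0 of the 10 members passed in limma, against 0.136% of all genes (0.121% upward and 0.0157% downward), and 3 members had an unadjusted p under 0.05 (Pmaip1, Bbc3 and Bcl2l1), against 7.83% of all genes. On reads recovered from the table, without the block, edgeR called 0 members, against 0.147% of all genes (0.131% upward and 0.0157% downward). DESeq2 called Bbc3 and Pmaip1 upward, against 1.38% of the genes it gave an adjusted p (0.919% upward and 0.463% downward). With the block, edgeR called the same 4 members in the same directions (7.09% of all genes, 3.75% upward and 3.34% downward). DESeq2 with the block did so too (6.54% of the genes it gave an adjusted p, 3.48% upward and 3.06% downward). Leaving out pair 1 kept the 4 calls of the blocked limma fit, leaving out pair 3 left Bbc3 and Pmaip1, and leaving out pair 2 left 0. Fewer cells expressing a gene and less RNA per cell cannot be told apart in these bulk libraries.

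**Figure D1:**
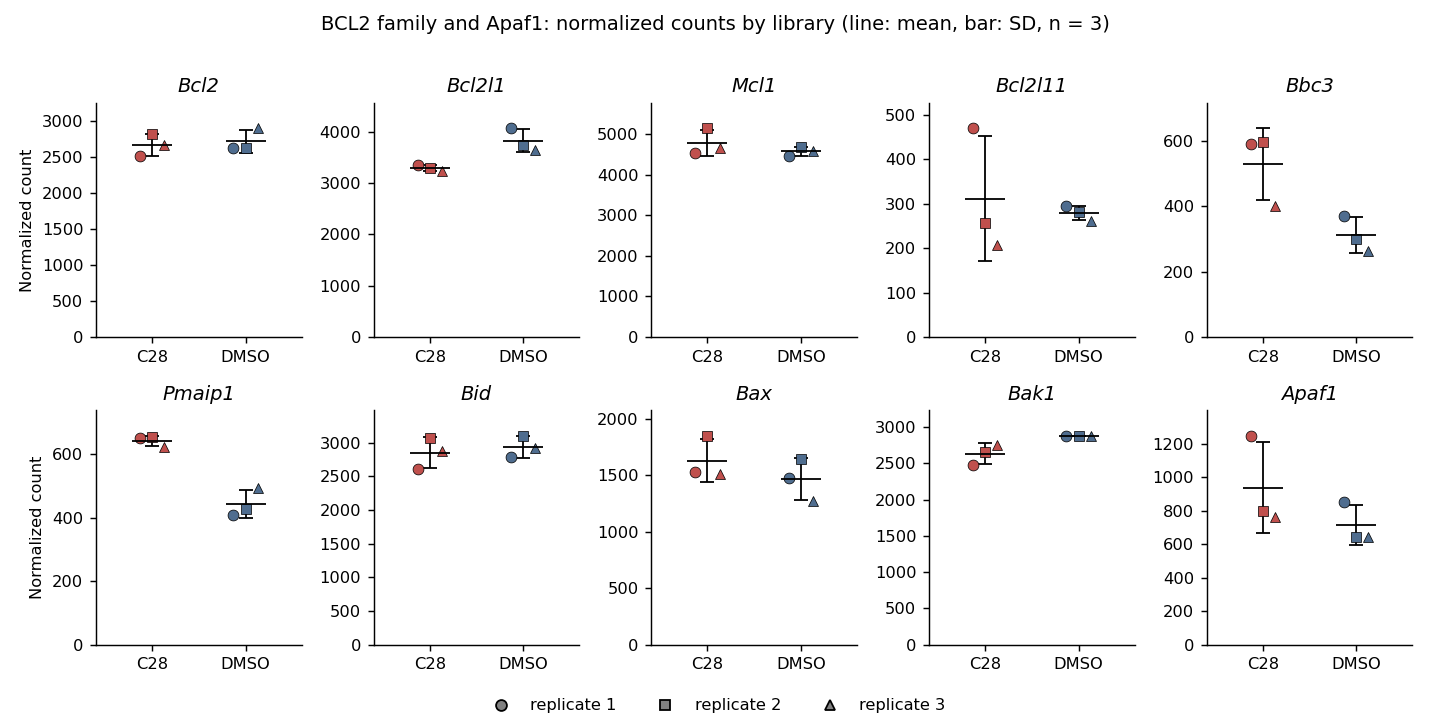
Normalized counts of the 10 members in each library, C28 on the left and DMSO on the right of each panel, with axes starting at 0. Symbols give the replicate number, the horizontal line the mean and the bar the SD of 3 libraries. The C28 libraries of Bbc3 and Pmaip1 sit above all DMSO libraries and those of Bcl2l1 and Bak1 below them. Replicate 1 is the highest library of each group for Apaf1, Bcl2l11 and, by less, Bcl2l1.

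The sequence upstream of the called members is shown for 3 of the 4 members that passed the blocked fit. The set of windows searched, 250 bases before RefSeq start sites (build GRCm38.p6), held 14 windows for 9 of the 10 members. It did not span the whole genome and held no window for Pmaip1, so the absence of Pmaip1 says nothing about its annotation. For Bbc3, Apaf1 and Bcl2l1, the window of its outermost start is printed 5′ to 3′ on the gene's strand, with capitals marking the GC box GGGCGG on either strand. The RNA data were not laid on these coordinates.
Bbc3, chr7:16309333-16309582, plus strand: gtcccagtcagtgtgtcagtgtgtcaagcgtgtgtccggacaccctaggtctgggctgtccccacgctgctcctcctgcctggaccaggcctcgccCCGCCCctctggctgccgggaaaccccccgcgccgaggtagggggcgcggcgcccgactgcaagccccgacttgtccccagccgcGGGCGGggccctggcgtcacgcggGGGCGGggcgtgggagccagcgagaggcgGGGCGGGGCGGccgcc
Apaf1, chr10:91082744-91082993, minus strand: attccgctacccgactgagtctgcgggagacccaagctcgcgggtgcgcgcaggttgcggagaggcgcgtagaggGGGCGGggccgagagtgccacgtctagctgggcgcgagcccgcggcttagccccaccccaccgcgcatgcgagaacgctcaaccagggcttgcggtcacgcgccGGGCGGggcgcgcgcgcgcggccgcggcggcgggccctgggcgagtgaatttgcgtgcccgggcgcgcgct
Bcl2l1, chr2:152831729-152831978, minus strand: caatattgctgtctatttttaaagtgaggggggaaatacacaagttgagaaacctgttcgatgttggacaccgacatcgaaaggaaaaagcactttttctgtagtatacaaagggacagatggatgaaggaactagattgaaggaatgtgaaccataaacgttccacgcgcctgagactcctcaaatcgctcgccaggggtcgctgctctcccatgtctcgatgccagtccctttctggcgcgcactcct

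The Bbc3 window is 76.4% G or C with 27 CpG dinucleotides and 5 GC boxes, and the Apaf1 window is 75.6% G or C with 42 CpG and 2 GC boxes. The Bcl2l1 window is 47.6% G or C with 12 CpG and 0 GC boxes, and its other 2 windows also held 0. Among members that did not pass, the Bcl2 window is 74.8% G or C with 36 CpG and 7 GC boxes, the Bcl2l11 windows are 72.0% and 73.2% G or C, and the Bak1 window is 58.4% G or C with 8 CpG. The median over 32851 mouse windows outside chromosome 18 was 52.4% G or C and 6 CpG, and 32.7% of those windows held a GC box, as did 10 of the 14 windows of the members. The windows of Bcl2, Mcl1, Bid, Bax and Bcl2l11 each held at least 1, and that of Bak1 held 0. Bbc3, Bcl2l1 and Bcl2l11 gave more than 1 window each, and windows of Bbc3 overlap in part, so the 14 are not independent. The 32851 windows were not limited to expressed genes. Other short motifs were searched on both strands, with overlaps counted. Pmaip1 had no window in the searched set, which left out the chromosome named above, so none of these counts covers it. The amino acid response element TGATGNAA, bound by ATF4, was found in 0 of the 14 windows and in 3.45% of all windows. The heat shock element GAANNTTC (6.69% of all windows), the cAMP response element TGACGTCA (1.55%) and the TATA box TATAAA (12.4%) were also found in 0. A p53 half-site, searched as its degenerate 10-letter pattern, was found in the window of Bax alone among the 9 members with a window (7.13% of all windows). The forkhead element TGTTTAC (3.17%) was found once for Bbc3 and once for Bcl2l11, the E box CACGTG (6.02%) once for Bbc3 and once for Bax, and the antioxidant response element TGACNNNGC (10.2%) once for Bcl2l1. These matches describe letters only, and a motif outside these windows would not be seen.

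The BH3-only genes did not move as one group. Bbc3 encodes PUMA, which binds all the guardians and is a known target of p53. It had 589, 597 and 401 normalized counts in C28 replicates 1 to 3, against 371, 301 and 263 in DMSO replicates 1 to 3. The lowest C28 library lay above the highest DMSO library, and each C28 library was above its own partner. The log2 fold change was 0.75 ± 0.19 (SE) without the block (limma adjusted p 0.343) and 0.75 ± 0.09 with it (limma adjusted p 0.00117). This was the largest change among the members.

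Pmaip1 encodes NOXA, a BH3-only protein that binds mainly Mcl1 and, in mouse and human cells, is induced by p53 and by ATF4. It had 651, 654 and 623 normalized counts in C28 replicates 1 to 3, against 409, 426 and 493 in DMSO replicates 1 to 3. The C28 libraries lay close together, with an SD of 16.9 around 642, against 44.3 around 442 with DMSO, and the groups did not overlap. Counting error alone gives on average an SD above 16.9 at these read numbers, so the closeness is not read further. On the log2 scale the change was 0.54 ± 0.10 without the block (limma adjusted p 0.165) and 0.54 ± 0.08 with it (limma adjusted p 0.00397). In the authors' deposited table the adjusted p was 0.00319 for Pmaip1 and 0.0192 for Bbc3, and 0.31 or more for the other 8 members.

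Bcl2l11 encodes BIM, a BH3-only protein under the control of FOXO factors and ERK that is known for removing blood cells deprived of cytokines. It had 471, 256 and 207 normalized counts in C28 replicates 1 to 3, against 295, 281 and 262 in DMSO replicates 1 to 3. C28 replicate 1 was the highest of the 6 libraries and C28 replicates 2 and 3 were the lowest, so the C28 group enclosed the DMSO group. Its log2 fold change of 0.07 had a 95% confidence interval from -0.58 to 0.71 without the block and from -0.29 to 0.42 with it. Without C28 replicate 1 the value was -0.28, and with pair 1 left out it was -0.24. The SD was 141 with C28 and 16.7 with DMSO.

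Bid encodes a BH3-only protein that caspase 8 cuts to link death receptors to mitochondria, so its activity is set mainly at the protein level. It had 2612, 3067 and 2873 normalized counts in C28 replicates 1 to 3, against 2786, 3108 and 2922 in DMSO replicates 1 to 3. Each C28 library was slightly below its partner and the groups overlapped. Its log2 fold change was -0.05, with a 95% confidence interval from -0.15 to 0.06 with the block (limma adjusted p 0.663).

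Among the guardians, Bcl2l1 differed from Bcl2 and Mcl1 in passing the blocked fit, though the difference between the genes was not tested. Bcl2l1, the gene of BCL-XL, had 3355, 3290 and 3235 normalized counts in C28 replicates 1 to 3, against 4080, 3756 and 3656 in DMSO replicates 1 to 3. All C28 libraries lay below all DMSO libraries, by a small margin relative to the level. The log2 fold change was -0.22 ± 0.06 without the block (limma adjusted p 0.455) and -0.22 ± 0.05 with it (limma adjusted p 0.0217). The gene makes a long, protective and a short, death-promoting form by splicing, and the counts per gene do not separate them.

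Bcl2, the founding guardian, had 2505, 2819 and 2658 normalized counts in C28 replicates 1 to 3, against 2625, 2616 and 2898 in DMSO replicates 1 to 3. The groups overlapped and the pairs went both ways. With the block the 95% confidence interval of the log2 fold change ran from -0.15 to 0.09 (limma adjusted p 0.847). Mcl1, a guardian whose protein and RNA turn over fast, had 4522, 5149 and 4665 normalized counts in C28 replicates 1 to 3, against 4445, 4677 and 4584 in DMSO replicates 1 to 3. The interval ran from -0.04 to 0.16 with the block (limma adjusted p 0.516), and each C28 library was above its partner by 1.02, 1.10 and 1.02 times.

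The effectors Bax and Bak1 lay on opposite sides of no change, and neither passed in either fit. Bax had 1531, 1852 and 1507 normalized counts in C28 replicates 1 to 3, against 1480, 1647 and 1270 in DMSO replicates 1 to 3. The groups overlapped, and the log2 value was 0.15 with a 95% confidence interval from 0.03 to 0.28 with the block (limma adjusted p 0.168). Bak1 had 2480, 2664 and 2759 normalized counts in C28 replicates 1 to 3, against 2878, 2873 and 2885 in DMSO replicates 1 to 3. The DMSO libraries of Bak1 were nearly equal, with an SD of 6.21, and all C28 libraries lay below them. At 3016 to 3078 reads per DMSO library, counting error alone gives a larger SD on average. The closeness of these libraries is therefore not read as a trait of Bak1. The log2 value was -0.13 with an interval from -0.24 to -0.02 with the block (limma adjusted p 0.187, and 0.722 without the block).

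Apaf1, the scaffold of the apoptosome and a known target of p53 and E2F1, had 1249, 799 and 763 normalized counts in C28 replicates 1 to 3. Its DMSO replicates 1 to 3 had 852, 645 and 642. DMSO replicate 1 lay above C28 replicates 2 and 3, so the groups overlapped, although each C28 library was above its own partner. On the log2 scale the change was 0.37 ± 0.20 without the block (limma adjusted p 0.756) and 0.37 ± 0.07 with it (limma adjusted p 0.0147). The blocked value was 0.28 without pair 1 (limma adjusted p 0.0482), 0.40 without pair 2 (limma adjusted p 0.215) and 0.43 when pair 3 was dropped (limma adjusted p 0.0903). Without C28 replicate 1 the value of the fit with no block was 0.14 (limma adjusted p 0.848).

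**Figure D2:**
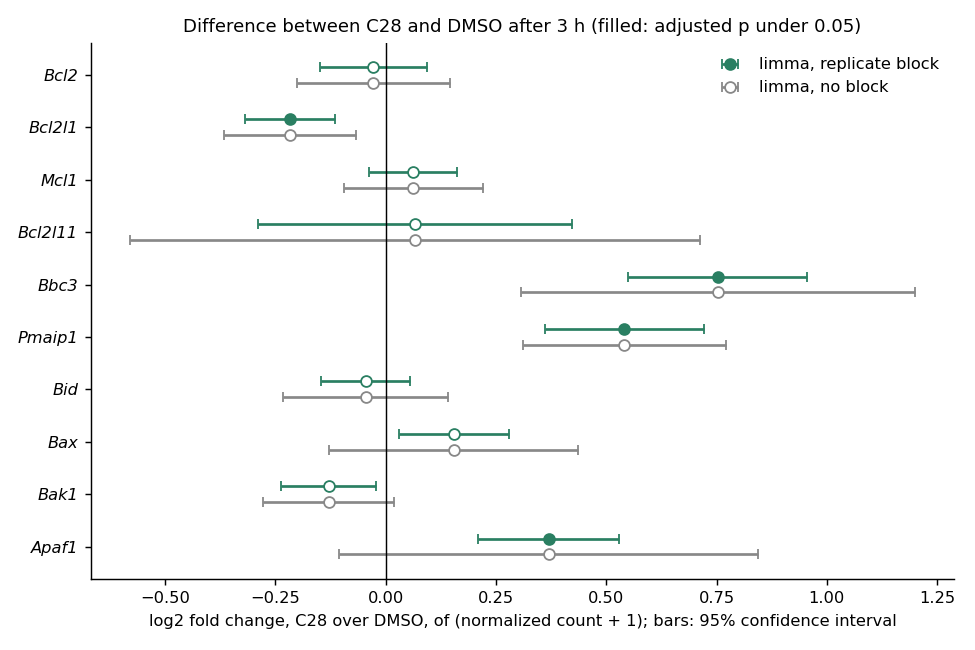
The log2 fold change of C28 over DMSO for each member, with its 95% confidence interval in limma without the block (grey) and with the replicate block (green). Filled points have an adjusted p under 0.05. The point estimates are the same in both fits, and each interval is narrower with the block.

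Over all 10 members, the groups did not overlap for 4, with 2 above (Bbc3, Pmaip1) and 2 below (Bcl2l1, Bak1). Of all genes tested, 14.6% did not overlap (8.15% above and 6.5% below), and of those averaging at least 100 normalized counts 16.8%. In the same-numbered pairs 5 members were higher with C28 in 3 of 3 pairs, 3 were lower in 3 of 3, and Bcl2 and Bcl2l11 were mixed. Of all genes, 39.4% went 1 way in 3 of 3 pairs, 20.6% higher and 18.8% lower. The median log2 fold change of the members was 0.06, with 6 of 10 above 0, against a median of 0.00 with 9733 of 19087 above 0 for all genes.

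The C28 to DMSO ratio within each same-numbered pair is given with an exact binomial 95% interval that covers counting error only. For Bbc3 the C28 to DMSO ratio was 1.59 in pair 1 (interval 1.39 to 1.81), 1.98 in pair 2 (1.73 to 2.29) and 1.52 in pair 3 (1.30 to 1.78). For Pmaip1 the ratios were 1.59, 1.53 and 1.26. For both genes every interval lay above 1. For Apaf1 the ratios were 1.47, 1.24 and 1.19, with the lowest bound at 1.07, and for Bcl2l1 they were 0.822, 0.876 and 0.885, with the highest bound at 0.928. Bcl2l11 had counting intervals on both sides of 1, at 1.59 (1.38 to 1.85) in pair 1 and 0.788 (0.654 to 0.949) in pair 3, with 0.914 (0.767 to 1.09) in pair 2. Bcl2 did so by less, at 1.08 (1.02 to 1.14) in pair 2 and 0.917 (0.870 to 0.967) in pair 3. Whether the C28 effect differed between pair 1 and pairs 2 and 3 was tested in limma as an interaction, chosen after these values were seen. The difference for Bcl2l11 was 0.91 ± 0.22 (SE) on the log2 scale with an adjusted p of 0.714 in limma, and 0 genes of 19087 passed (0% of all). With 1 pair against 2, this leaves undecided whether the effect differed between the pairs.

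**Figure D3:**
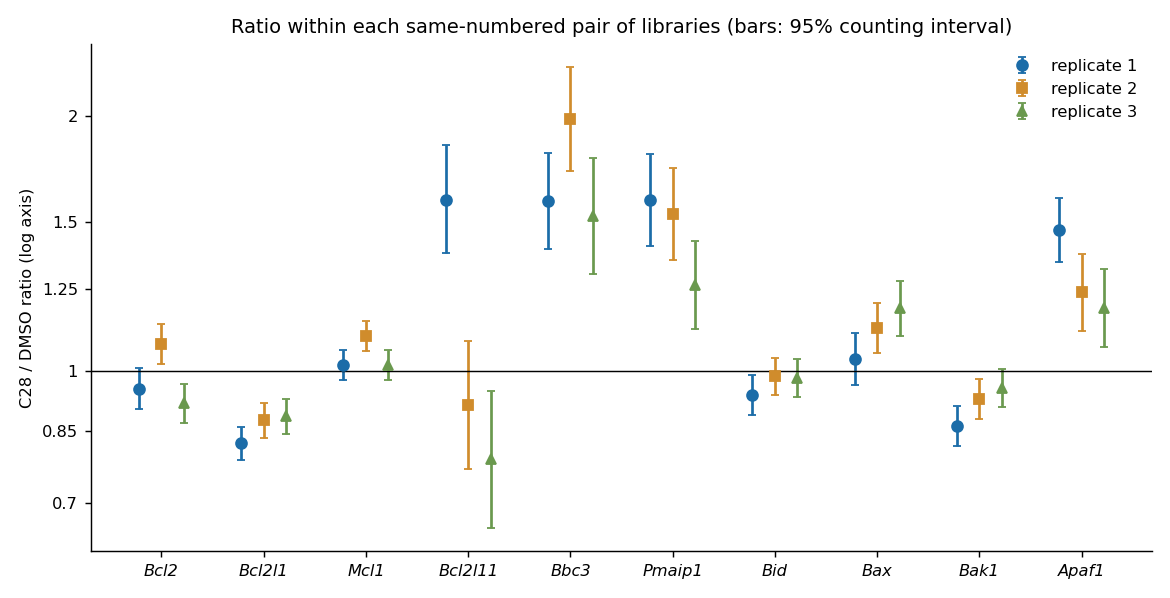
The ratio of C28 to DMSO normalized counts in each same-numbered pair of libraries, on a log axis, with 95% counting intervals from the recovered reads. The line marks a ratio of 1. The 3 pairs of Bbc3, Pmaip1 and Apaf1 lie above it and those of Bcl2l1 below it, while Bcl2l11 runs from 0.788 in pair 3 to 1.59 in pair 1.

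Replicate 1 was set against replicates 2 and 3 over both groups, with treatment in the model. Apaf1 and Bcl2l11 were higher in replicate 1, and no other member passed. Of all genes 19.6% passed, 9.5% higher and 10.1% lower. Apaf1 averaged 1051 normalized counts in the 2 libraries of replicate 1 and 712 in the other 4, a log2 difference of 0.54 ± 0.08 (SE, limma adjusted p 0.000528), which exceeds its C28 change of 0.37. For Bcl2l11 the means were 383 and 251, a log2 difference of 0.58 ± 0.17 (limma adjusted p 0.0385). Bid was at 2699 and 2992 (limma adjusted p 0.0848) and Bbc3 at 480 and 390 (limma adjusted p 0.122). Within the C28 arm alone and within the DMSO arm alone, with 1 library against 2, limma called 0 members, and 2 and 1 members had an unadjusted p under 0.05. Markers of other cells differed too: in replicate 1, 0 of 8 tested fibroblast and feeder genes were higher and 7 lower, 3 of 10 tested mast cell and leukocyte genes were higher and 5 lower, and 1 of 7 tested germline genes was higher and 2 lower. The part of other cells in these differences was not tested.

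A list of 13 genes, named upstream regulators here, was read in the same fits and was chosen with earlier results of these data known. It joins factors known to act on the members with Trib3, Mdm2 and Cdkn1a, which are targets of ATF4 or p53. Its counts and median are therefore not those of regulators alone. Trp73 had 0 reads in all 6 libraries, and of the 12 tested, Atf4 and Trib3 rose without the block. Atf4, the main factor of the integrated stress response, was at 13293 ± 1660 normalized counts with C28 and 7441 ± 503 with DMSO (1.78-fold, limma adjusted p 0.0366). Trib3, its target, was at 1329 ± 268 and 298 ± 52.3 (4.44-fold, limma adjusted p 0.00808). The count of 2 became 1 without DMSO replicate 1 or 2 and 0 without DMSO replicate 3, C28 replicate 2 or C28 replicate 3. With the block 8 rose and 1 fell, beside 2.54% of all genes upward and 2.25% downward, and 7, 2 and 5 passed with pair 1, 2 or 3 left out. The median log2 fold change of the list was 0.45, against 0.00 over all genes, and since the list was chosen with such results known, these counts are a description. Trp53, the gene of p53, did not pass: it was at 2706 ± 209 normalized counts with C28 and 2821 ± 153 with DMSO (SD, n = 3 each; limma adjusted p 0.539 with the block). The p53 targets Mdm2, its ubiquitin ligase, and Cdkn1a, the cell cycle inhibitor p21, rose 1.39-fold and 1.33-fold with the block (limma adjusted p 0.000418 and 0.000776). Ddit3, the stress factor CHOP that lies downstream of ATF4, had 368, 579 and 563 normalized counts in C28 replicates 1 to 3, against 221, 365 and 283 in DMSO replicates 1 to 3. It rose by a factor of 1.74 with the block (limma adjusted p 0.000676, and 0.442 without it).

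The forkhead factors Foxo1 and Foxo3, known to drive Bcl2l11 and Bbc3 in other settings, were also higher with C28. Foxo1 had 410, 325 and 346 normalized counts in C28 replicates 1 to 3, against 256, 250 and 253 in DMSO replicates 1 to 3, and the groups did not overlap. It rose 1.42-fold with the block (limma adjusted p 0.0117). Foxo3 rose 1.33-fold with the block, at 710 ± 96.8 with C28 and 530 ± 48.5 with DMSO (limma adjusted p 0.00851). Atf3, an early stress factor, was low, at 51.2 ± 23.7 with C28 and 18.7 ± 9.74 with DMSO; in the blocked fit it rose by 2.76 times (limma adjusted p 0.0128). Myc, a transcription factor of growth that also sensitises cells to death, fell to 0.809 of the DMSO level with the block, at 6616 ± 439 with C28 and 8188 ± 664 with DMSO (limma adjusted p 0.00185). E2f1, an activator of Apaf1, was at 778 ± 16.4 and 817 ± 70.3 and did not pass (limma adjusted p 0.676 with the block).

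The rest of the BCL2 family gave no call. Of 17 such genes 9 averaged under 10 normalized counts, 10 were tested, and 0 passed in limma without the block (1 at an unadjusted p under 0.05), with the block, in edgeR or in DESeq2. The guardian genes Bcl2a1b and Bcl2a1c and the BH3-only gene Hrk had 0 reads, and Bcl2a1a and Bcl2a1d averaged under 1 in both groups. The Bcl2a1 copies are nearly identical, so their reads may have been split or dropped. Bad, a BH3-only gene governed by growth factor kinases, was at 336 ± 50.2 with C28 and 376 ± 60.4 with DMSO (SD, n = 3 each). Bmf, a BH3-only gene tied to the cytoskeleton, was at 8.69 ± 9.62 and 14.8 ± 8.26. The mitophagy receptors Bnip3 and Bnip3l were at 1041 ± 132 and 1317 ± 169 with C28, against 986 ± 158 and 1285 ± 120 with DMSO.

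Downstream, 26 genes of the apoptosome, caspases, death receptors and inhibitors were all tested. Without the block 0 passed in limma (2 at an unadjusted p under 0.05), in edgeR or in DESeq2, and the median log2 fold change was -0.05 with 9 of 26 above 0. With the block 1 rose and 1 fell, beside 4.79% of all genes and 8.73% of those averaging at least 100 normalized counts, so the list's count is near the background. With the block 1, 0 and 0 passed with pair 1, 2 or 3 left out. Cflar, the caspase 8 inhibitor c-FLIP, was at 1327 ± 34.0 with C28 and 1081 ± 74.4 with DMSO and rose 1.23-fold (limma adjusted p 0.022 with the block). Fadd, the adaptor that recruits caspase 8, had 351, 367 and 357 normalized counts in C28 replicates 1 to 3, against 465, 482 and 460 in DMSO replicates 1 to 3, and fell to 0.764 of the DMSO level (limma adjusted p 0.014 with the block). The partners of Apaf1 did not pass: Cycs, cytochrome c, was at 6799 ± 669 and 6766 ± 116, and Casp9, the initiator caspase of the apoptosome, at 485 ± 45.6 and 431 ± 38.9.

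Mcl1 protein is removed through ubiquitin enzymes, so 7 of their genes were read as well. Usp13 had 0 reads, and of the 6 tested 0 passed in limma without the block (0 at an unadjusted p under 0.05), with the block, in edgeR or in DESeq2. Huwe1, the ligase MULE, was at 8162 ± 207 normalized counts with C28 and 8417 ± 251 with DMSO, and Usp9x, which removes ubiquitin from Mcl1, at 4456 ± 477 and 4136 ± 198 (SD, n = 3 each).

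**Figure D4:**
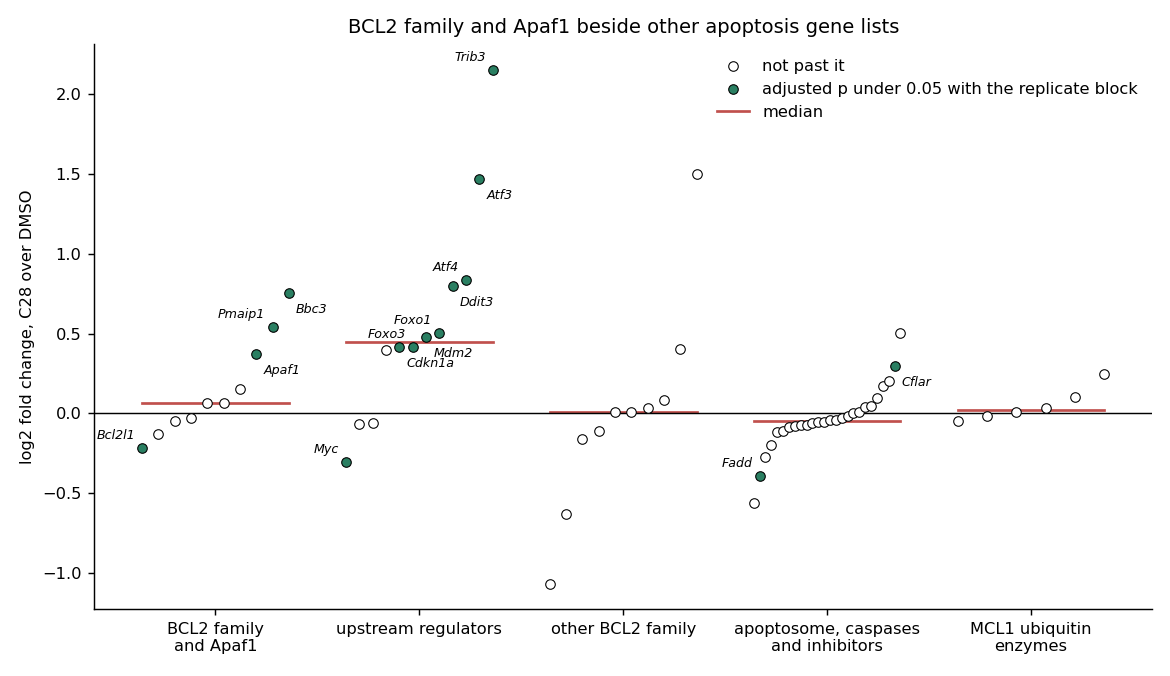
The log2 fold change of C28 over DMSO for every tested gene of 5 lists, in increasing order within a list, with filled points past an adjusted p of 0.05 in limma with the replicate block and lines at the list medians. The medians were 0.06 for the members, 0.45 for the list named upstream regulators and 0.01 for the rest of the BCL2 family. They were -0.05 for the apoptosome and caspase list and 0.02 for the Mcl1 ubiquitin enzymes. The list named upstream regulators also holds targets of ATF4 and p53.

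Genes with the most similar profile over the 6 libraries were found for the 4 called members, by the root mean square distance of centred log2 values among 10568 genes averaging at least 50 normalized counts. For Bbc3 these were Fam212b (distance 0.066) and Lpin1 (0.0923), and for Pmaip1 they were Esd (0.0618) and Pde4dip (0.0637). For Bcl2l1 they were the kinase genes Mknk2 (0.0248) and Aurkb (0.0255), and for Apaf1 they were Nbeal1 (0.0287) and Phf1 (0.0439). Bbc3 and Bcl2l1 had the largest distance of any 2 members, at 0.525, and Mcl1 and Bid the smallest, at 0.0655. The distance is not scaled, so 2 members that vary little come out as close whatever their direction. Mcl1 was higher with C28 in 3 of 3 pairs and Bid lower in 3 of 3.

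In the RefSeq gene table (GRCm38.p6) 4 members overlap the span of a neighbouring protein gene, and whether counting used strand is not given. Ggnbp1, which overlaps Bak1, had 12.3 to 13.5 normalized counts with C28 and 11.2 to 16.3 with DMSO. Acoxl, beside Bcl2l11, had at most 1.04 and 2.85, and Cox4i2, beside Bcl2l1, at most 10.4 and 1.90. Ikbip, which overlaps Apaf1, had 665 to 681 with C28 and 622 to 716 with DMSO, so its groups overlapped. Levels of other cell types were read beside these results: of 7 tested germline genes and 10 tested mast cell and leukocyte genes 0 passed in limma without or with the block, and of 8 tested fibroblast genes Pdgfrb fell with the block. The summed level of the mast cell and leukocyte list was 58988 to 61620 normalized counts with C28 and 62425 to 66361 with DMSO, without overlap. Single genes did not overlap in 14.6% of all tested, but no such share was computed for sums over a list. Gata2, the highest gene of that list, also had a lower mean with C28 and weighs most in the sum. The fibroblast list summed to 2164 to 5176 and 1939 to 4996, and the germline list to 1341 to 1988 and 1567 to 2175. Their part in the results was not tested.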

How the data were processed

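RNA was sequenced from 3 C28 and 3 DMSO libraries, grouped and numbered by their titles. The libraries were made from isolated mRNA and read from both ends, per the labels' protocols, and the submitters' processing notes name mm9, Bowtie2 and Cufflinks 2.2.1 without saying what each was used for. A pair of RNA library kits is named, of which 1 marks strand. How reads were counted, and whether by strand, is not given in the sources used here. Values in the table the authors deposited are a signal: reads divided by a factor per library, since 100% of those above 0 came out as whole numbers of reads, to within 0.01. The same deposited table gives a log2 fold change with an adjusted p-value for each gene, quoted only where named as the authors'.

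Whole reads were recovered by that division. The main test was limma 3.58.1 in R 4.3.3 on log2(value + 1) with an intensity trend, over genes reaching 1 in 3 or more of the 6 libraries, adjusted by Benjamini-Hochberg and called under 0.05. Folds are on this log scale, so those of low genes are understated. Alternatives were a replicate block, edgeR 4.0.16 and DESeq2 1.42.0 on the reads, other pseudocounts, filters and scalings, and leaving out libraries. Deviations from group means over 10578 genes averaging at least 50 correlated 0.84, 0.68 and 0.70 between same-numbered libraries, but replicate 1 stood apart in both groups, which raises these values. Between replicates 2 and 3 the differently numbered libraries also correlated, at 0.54 and 0.41, so pairs 2 and 3 are less distinct. Same-numbered libraries were treated as pairs, since all 3 correlations exceeded 0.1, and the labels state no pairing. The values of 0.54 and 0.41 for differently numbered libraries exceeded 0.1 too, so this rule does not by itself pick out pairs 2 and 3. The 4 member calls of the blocked limma fit rest on this pairing. The fit without replicate 1 and the test of the C28 effect in replicate 1 were chosen after seeing the data. Adjusted p-values that DESeq2 left empty were kept empty. Scripts were tested on simulated data.

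The members and lists were chosen with earlier results of these data known. Named from the lists were all members, and any other gene past the threshold in either limma fit; further genes were named for their role after their values were seen. Marker genes with the highest mean in each list were also eligible. Symbols came from the table for 24187 rows, and Adgre1 was matched by its older name Emr1. The H3K27ac peak lists were not used here.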

Additional observations from a re-analysis of the deposited data

How the results depend on the processing

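The members' count of 0 calls without the block stayed 0 under other pseudocounts, filters and scalings, with edgeR, with any 1 library left out, and with replicate 1 left out of both arms, an alternative chosen after seeing the data. It was 4 with the replicate block (4 also with edgeR and with DESeq2 with the replicate block), 2 with DESeq2 without it, and ran from 0 to 4 with 1 pair left out of the blocked fit; 0 came without pair 2, where the adjusted p by limma of the 4 lay between 0.0754 for Bbc3 and 0.286 for Bcl2l1. Over all genes 26 were called without the block, 914 with the replicate block, 182 with DESeq2, 1353 and 740 with edgeR and DESeq2 with the replicate block, and 90 with replicate 1 left out of both arms; the range was 0 (without C28 replicate 2, with 1207 at an unadjusted p under 0.05) to 23 with 1 library left out, and 854, 47 and 191 with pair 1, 2 or 3 left out of the blocked fit. The other apoptosis genes gave 0 calls without the block, 2 in each of the 3 fits with the replicate block and 0 to 1 with a pair left out; the upstream regulators gave 2, 9 with the block, 4 with DESeq2, 10 with edgeR or DESeq2 and the block, 0 to 2 with 1 library left out and 7, 2 and 5 with pair 1, 2 or 3 left out. Between replicate 1 and the others, 2 members passed, and 0 within the C28 or the DMSO arm alone. Over 21 alternatives per member, the log2 fold change kept its sign for 7 members (0.64 to 0.94 for Bbc3, 0.48 to 0.64 for Pmaip1, 0.14 to 0.50 for Apaf1, -0.25 to -0.17 for Bcl2l1). It changed sign for Bcl2 (0.020 without DMSO replicate 3, 0.014 without C28 replicate 1, 0.020 with the replicate block without pair 3; range with 1 library left out -0.071 to 0.020), for Bcl2l11 (-0.28 without C28 replicate 1, -0.24 with pair 1 left out in either fit; range -0.28 to 0.32) and for Bid (0.016 without C28 replicate 1; range -0.10 to 0.016); the cause was not tested. The median over all genes was 0.00 with the deposited scaling and 0.01 with either other scaling. Peak alternatives were not run, since the H3K27ac lists were not used here.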
